A study of Mus musculus with 8 samples.

Results

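The genes described here are 33 collagens and stromal matrix genes, listed by symbol among the 53247 genes of an RNA-Seq table of tumor-associated macrophages (TAMs). They comprise 17 collagen chains, 7 matrix glycoproteins, 3 small leucine-rich proteoglycans, 4 proteins that fold, process or crosslink collagen and the 2 PDGF receptors. All 33 symbols were in the table. The study asked how loss of miR-21, a microRNA abundant in macrophages, changes the transcriptome of TAMs. LLC cells, a mouse Lewis lung carcinoma line, were placed under the skin of WT mice or of mice that lack miR-21 (miR-21-/-, labelled miR-21 null), all given as strain C57/BL6, at 8 weeks of age. After 14 days, at 10 weeks of age, tumors were digested and CD45+ CD11b+ MHC II+ F4/80+ cells were sorted, with 4 biological replicates per genotype. The deletion was carried by every host cell, fibroblasts included, while the LLC cells of both groups kept miR-21. The labels do not say whether mice were pooled; replicate 1 of the miR-21-/- group has a title that holds a pair of numbers, and it was counted as 1 sample.

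Collagens are secreted proteins of 3 chains wound into a triple helix. Types I, III and V form the fibrils of connective tissue, types IV, XV and XVIII belong to basement membranes, and type VI forms beaded filaments at cell surfaces. In tumors most of this matrix is made by fibroblasts and by the pericytes of vessels, which carry PDGF receptors. Macrophages mainly take up and degrade collagen, although they do express some matrix genes, such as fibronectin.

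Values are CPM, that is, reads of a gene per 1e+06 reads of the library, as the authors deposited them. The libraries held 20.2 to 33.4 times 1e+06 reads, and 3 reads corresponded to 0.0899 to 0.148 CPM. Mir21a was at 0 CPM in all 8 libraries, which select mRNA, so its level could not check the labels. The 10 macrophage markers summed to between 16802 and 18658 CPM in WT and between 17297 and 20604 CPM in miR-21-/- TAMs, and each exceeded 1 CPM in at least 1 sample. Fold changes compare miR-21-/- with WT TAMs as differences of log2(CPM + 1), a scale on which genes of low level appear to change less than they do. Each was tested with limma over the 13850 genes whose mean reached 1 per 1e+06 of the column total. Passing the threshold required a change of over 1.5-fold and, after Benjamini-Hochberg adjustment, a p of no more than 0.005. The median fold change of all tested genes was -0.10. With samples rescaled by the median of ratios it was -0.0030, and the calls went over all genes from 400 higher and 586 lower to 520 higher and 350 lower. Of the 10 macrophage markers 1, Fcgr1, rose (fold change 0.75, adjusted p = 0.000561), and 2 were lower at an unadjusted p under 0.05 without passing the threshold, Adgre1, which encodes the F4/80 antigen of the sort (-0.38, adjusted p = 0.00140), and Csf1r (-0.48, adjusted p = 0.00538), with separate groups for all 3.

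Of the 31 members that could be tested, 17 passed the threshold as lower and 0 as higher, while 4.23% of all tested genes passed as lower and 2.89% as higher. At an adjusted p limit of 0.05, 24 members were lower, with a background of 6.51%, and at an unadjusted p under 0.05, 25 were lower and 0 higher, with backgrounds of 34.1% lower and 12.3% higher. All 31 fold changes were below 0, as were 66.8% of those of all tested genes, and their median was -1.22. In 20 of the 31 tested members the 4 miR-21-/- samples lay below the 4 WT samples, against 25.7% of all tested genes. Rescaling by the median of ratios or quantile normalization left 12 members lower and 0 higher, and with either Col1a1, Col3a1, Sparc, Loxl2 and Pcolce no longer passed, with adjusted p-values after rescaling from 0.00532 for Sparc to 0.00963 for Loxl2. The count was 10 without WT replicate 3 and 6 with no filter on low values, where p-values were adjusted over 30634 genes, with 0 higher in both. Over all genes these settings gave 395 lower and 352 higher, and 245 lower and 270 higher. Lum and Lox were under the filter and were not tested. Among the tested members, 6 had a mean under 1 CPM in miR-21-/- TAMs and entered the test through their WT values, namely Col5a2, Col15a1, Col8a1, Col14a1, Fbln2 and Postn, and 2 of these passed the threshold. Of the 25 members with both means at or above 1 CPM, 15 passed it.

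**Figure D1:**
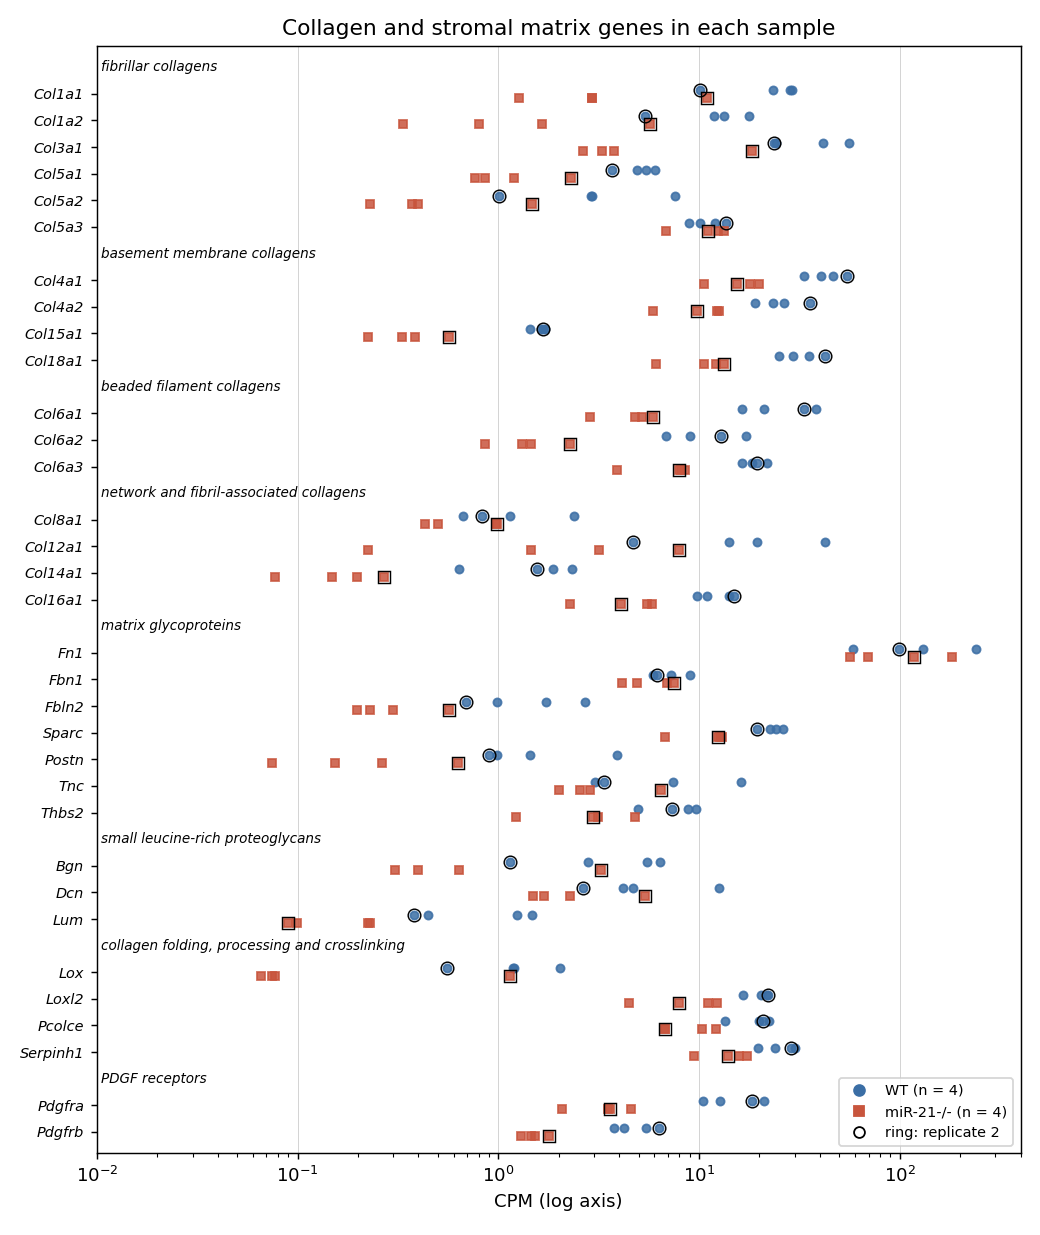
Level of each of the 33 members in each sample, in CPM on a log axis, by role. Circles are the 4 WT and squares the 4 miR-21-/- samples, and rings mark replicate 2 of each genotype. Col6a1 and Pdgfra show separated groups, whereas Fn1 ranges from 56.4 to 239 CPM with mixed genotypes.

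The sequence removed in the miR-21-/- mice is shown for reference, with the members that hold a match to its seed. Mature miR-21a-5p is encoded at chr11:86584120-86584141 on the minus strand of GRCm38.p6 (RefSeq), with its seed, bases 2 to 8, in capitals.
miR-21a-5p: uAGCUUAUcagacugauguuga
The matching letters in an mRNA are ATAAGCT, or ATAAGCTA with the adenine that follows. In the longest annotated 3′ UTR (GENCODE vM21), ATAAGCTA was found in 1 of the 33 members (3.03%) and in 2.31% of the tested genes with such a UTR. Any match of 7 or 8 bases was found in 3 members (9.09%) and in 13% of those genes. The 3 stretches are printed below with the match in capitals.
Col12a1: gaggcgcctaATAAGCTActaaccaaca
Sparc: acggagttgcATAAGCTcaccgtccac
Postn: gatgattgtcATAAGCTtcttgcaata
They start at base 291 of 2178, 296 of 1085 and 545 of 738 of the 3′ UTR. The fold changes of these genes were below 0, at -2.35 for Col12a1 (adjusted p = 0.0206), -1.01 for Sparc (adjusted p = 0.00227) and -1.04 for Postn (adjusted p = 0.0169). A match of letters is a description and does not show a site in use, and whether any member is a target was not tested.

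On the log2(CPM + 1) scale the fibrillar collagens held the largest fold change of the members, that of Col3a1, which was not the largest as a ratio of mean CPM, and also the smallest, that of Col5a3. Of 6 genes, Col1a1, Col3a1 and Col5a1 fell, Col1a2, Col5a2 and Col5a3 did not pass the threshold, and the median fold change was -1.84. Col1a1, the major chain of type I collagen (chr11:94936224-94953043, plus strand), was at 23.3, 10.1, 29.1 and 28.5 CPM in WT replicates 1 to 4 and at 1.27, 11.0, 2.92 and 2.94 CPM in miR-21-/- replicates 1 to 4. The groups overlapped, because WT replicate 2 lay just below miR-21-/- replicate 2, and the other 6 samples were well apart. Col1a1 fell by 2.29 (SE 0.47, adjusted p = 0.00464). Col1a2, its partner chain, was at 11.9, 5.40, 13.3 and 17.7 CPM in WT and 0.336, 5.73, 0.806 and 1.65 CPM in miR-21-/- TAMs. Its fold change of -2.25 (SE 0.47) had an adjusted p of 0.00503, just outside the limit that Col1a1 just met. Replicate 2 of each genotype made the groups of Col1a2 overlap as well, although the shared number alone does not show that these samples are paired.

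Col3a1, the chain of type III collagen (chr1:45311538-45349707, plus strand), was at 41.7, 23.7, 24.2 and 56.0 CPM in WT and at 3.28, 18.3, 3.76 and 2.65 CPM in miR-21-/- TAMs. No sample of one genotype crossed into the other, though miR-21-/- replicate 2 was 4.86 times the next highest of its group. The fold change was -2.51 (SE 0.49, adjusted p = 0.00344). Neither Col1a1 nor Col3a1 was a stable call. Col1a1 remained past the threshold without replicate 2 of either genotype, and leaving out any of the other 6 samples gave adjusted p-values up to 0.0168. Col3a1 remained past it without miR-21-/- replicate 2, at an adjusted p of 0.000209, and not without any of the other 7 samples, where the adjusted p reached 0.0118.

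Col5a1, a chain of the type V collagen that nucleates fibrils, was lower in level and steadier, at 5.45, 3.71, 4.90 and 6.01 CPM in WT and 1.19, 2.31, 0.768 and 0.860 CPM in miR-21-/- TAMs. It fell by 1.43 (SE 0.20, adjusted p = 0.000673), and the call held whichever sample was left out. Col5a2 (chr1:45374321-45503283, minus strand), which lies beside Col3a1 on the opposite strand, ranged from 1.00 to 7.62 CPM in WT and from 0.230 to 1.47 CPM in miR-21-/- TAMs, with a fold change of -1.38 (adjusted p = 0.0194). Col5a3, another chain of type V, stood apart from the others. It was at 8.89, 13.6, 10.1 and 12.0 CPM in WT and at 12.5, 11.0, 13.3 and 6.88 CPM in miR-21-/- TAMs. Its fold change of -0.05 had a 95% interval of -0.46 to 0.37 (adjusted p = 0.864), and its sign turned under quantile normalization (0.097) and under rescaling by the median of ratios (0.056).

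**Figure D2:**
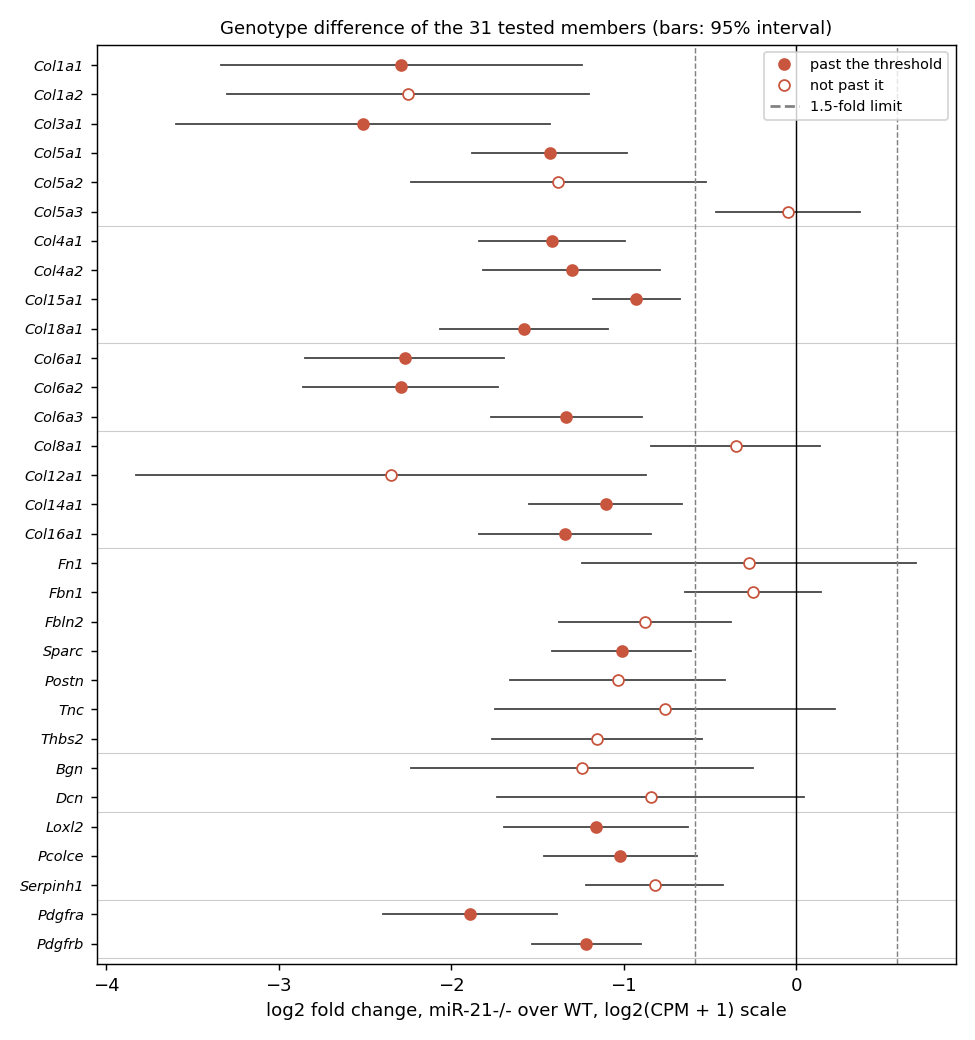
Log2 fold change, miR-21-/- over WT, of the 31 tested members on the log2(CPM + 1) scale, with 95% intervals, ordered by role. Filled points passed the threshold and dashed lines mark a fold change of 1.5. The 4 basement membrane, 3 type VI and 2 PDGF receptor genes are filled, while Col5a3, Fn1 and Fbn1 lie close to 0.

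Sequence just before the start of Col3a1 is given for reference. The 250 bases before the RefSeq start of Col3a1 (chr1:45311288-45311537, plus strand, GRCm38.p6) hold the letters TATAAA, 117 bases before the start, in capitals. These letters were not shown to be the TATA box of this start.
Col3a1: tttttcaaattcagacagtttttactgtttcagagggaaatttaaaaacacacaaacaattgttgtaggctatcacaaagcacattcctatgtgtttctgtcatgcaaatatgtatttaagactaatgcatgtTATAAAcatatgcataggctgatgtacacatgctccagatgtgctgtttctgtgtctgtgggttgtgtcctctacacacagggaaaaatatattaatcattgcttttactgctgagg
Entries were matched for 23 members by symbol, with 27 windows in all. Read on both strands in windows of 250 bases, TATAAA was found in 5 of these 27 windows, CCAAT in 7, the GC box GGGCGG in 16 and the AP-1 motif TGANTCA in 1. Over all 32851 promoter windows the shares were 12.4% for TATAAA, 33.8% for CCAAT, 32.7% for GGGCGG and 6.75% for TGANTCA. No binding was measured here, and the matches are a description of the letters.

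All 4 basement membrane collagen genes fell, with a median fold change of -1.36. Col4a1 and Col4a2 encode the chains of the type IV network under endothelium and around pericytes. Col4a1 was at 33.2, 54.8, 40.6 and 46.7 CPM in WT and 19.8, 15.4, 17.9 and 10.6 CPM in miR-21-/- TAMs, and it fell by 1.42 (SE 0.19, adjusted p = 0.000513). Col4a2 was at 19.0, 35.7, 23.4 and 26.6 CPM in WT and 12.2, 9.77, 12.5 and 5.92 CPM in miR-21-/- TAMs, and it fell by 1.30 (SE 0.23, adjusted p = 0.00211). The groups did not overlap for either gene. In contrast to type I collagen, WT replicate 2 was the highest and not the lowest WT sample. Leaving out WT replicate 2, WT replicate 3 or miR-21-/- replicate 2 put Col4a2 outside the limit, at an adjusted p of up to 0.00696, whereas Col4a1 stayed inside it with any sample left out.

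Col4a1 (chr8:11198423-11312827, minus strand) and Col4a2 (chr8:11312805-11449288, plus strand) are transcribed away from each other, and their annotated starts overlap by 23 bases. Whether reads were counted by strand is not stated in the sources used here, so reads in these bases could not be told apart. The ratio of Col4a1 to Col4a2 CPM was 1.75, 1.54, 1.74 and 1.75 in WT and 1.62, 1.58, 1.43 and 1.79 in miR-21-/- TAMs, so the chains kept nearly the same ratio at each level. Both upstream windows hold the letters CCAAT, read as ATTGG on the opposite strand for Col4a1, at 145 bases before its start (chr8:11312955-11312983, minus strand) and 32 bases before the start of Col4a2 (chr8:11312761-11312789, plus strand). Each stretch lies within the annotated gene on the opposite strand.
Col4a1: tgcttgcccgggATTGGcgagccaagggg
Col4a2: ccgaggagctccCCAATttgttggcgctg

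Col18a1, which encodes a basement membrane collagen whose C-terminal fragment is endostatin, was at 25.1, 42.4, 29.3 and 35.2 CPM in WT and at 12.1, 13.4, 10.6 and 6.12 CPM in miR-21-/- TAMs. It fell by 1.58 (SE 0.22, adjusted p = 0.000620). The related Col15a1 was scarce, at 1.71, 1.66, 1.63 and 1.43 CPM in WT and 0.224, 0.570, 0.384 and 0.331 CPM in miR-21-/- TAMs. It had the smallest spread of the called members in WT (SD 0.120 CPM, n = 4) and fell by 0.93 (SE 0.11, adjusted p = 0.000294). Neither call was lost when a sample was left out. Col18a1 overlaps the coding gene Slc19a1 in the annotation, which reached at most 9.73 CPM.

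All 3 type VI collagen genes fell, with a median fold change of -2.27. Col6a1 (chr10:76708792-76726169, minus strand) was at 16.4, 33.3, 21.0 and 38.4 CPM in WT and 4.81, 5.88, 5.18 and 2.88 CPM in miR-21-/- TAMs. The lowest WT sample was 2.80 times the highest miR-21-/- sample. Col6a2 (chr10:76595762-76623631, minus strand), its neighbour on the chromosome, was at 6.82, 12.9, 9.05 and 17.2 CPM in WT and 1.31, 2.28, 1.46 and 0.860 CPM in miR-21-/- TAMs. Col6a1 fell by 2.27 (SE 0.26, adjusted p = 0.000222) and Col6a2 by 2.29 (SE 0.25, adjusted p = 0.000188). Col6a3, the longest of the type VI chains, was at 18.3, 19.4, 16.4 and 21.7 CPM in WT and 8.17, 7.97, 8.56 and 3.90 CPM in miR-21-/- TAMs, a fall of 1.33 (SE 0.20, adjusted p = 0.000827). All 3 calls held with any sample left out. The ratio of Col6a1 to Col6a2 CPM was 2.39 ± 0.149 in WT and 3.29 ± 0.495 in miR-21-/- TAMs (SD, n = 4).

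The 4 network and fibril-associated collagens had a median fold change of -1.22, and 2 of them fell. Col12a1, which decorates type I fibrils, had the highest WT mean of this role. It was at 14.0, 4.67, 42.4 and 19.6 CPM in WT and at 0.224, 7.94, 3.19 and 1.46 CPM in miR-21-/- TAMs. The group means differed by 6.30 times, but WT replicate 2 lay below miR-21-/- replicate 2 and the fold change of -2.35 (SE 0.66) had an adjusted p of 0.0206. Col14a1, another fibril-associated collagen, was at 2.34, 1.56, 1.88 and 0.637 CPM in WT and 0.149, 0.270, 0.0768 and 0.198 CPM in miR-21-/- TAMs, where replicate 3 lay under the level of 3 reads. It fell by 1.10 (SE 0.20, adjusted p = 0.00234), and the call held without WT replicate 4 and was lost without any of the other 7 samples (adjusted p up to 0.00891).

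Col16a1, which also associates with fibrils, was at 9.76, 15.0, 10.9 and 14.1 CPM in WT and at 5.86, 4.11, 5.53 and 2.28 CPM in miR-21-/- TAMs. It fell by 1.34 (SE 0.22, adjusted p = 0.00163), and the adjusted p was 0.00625 without WT replicate 2 and 0.00576 without miR-21-/- replicate 2. Col8a1, a short-chain network collagen of vessels, was near 1 CPM in both genotypes, with overlapping groups and a fold change of -0.35 (95% interval -0.84 to 0.14, adjusted p = 0.241).

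Of the 7 matrix glycoprotein genes 1 fell, and the median fold change was -0.88. Fn1 encodes fibronectin, which fibroblasts and macrophages both make, and it was the member with the highest level. It was at 130, 99.0, 239 and 58.6 CPM in WT and at 183, 118, 69.6 and 56.4 CPM in miR-21-/- TAMs. The lowest and the second highest of the 8 values belonged to miR-21-/- samples, and the groups were fully mixed. Its fold change of -0.27 (SE 0.44) had a 95% interval of -1.24 to 0.70 and an adjusted p of 0.657, and it turned to 0.073 without WT replicate 3. Fbn1, the fibrillin of microfibrils, was likewise similar in both groups, from 5.92 to 9.04 CPM in WT and from 4.13 to 7.52 CPM in miR-21-/- TAMs (fold change -0.25, 95% interval -0.64 to 0.14, adjusted p = 0.297).

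Sparc was the gene of this role that fell. It encodes a collagen-binding protein and was at 22.5, 19.5, 26.3 and 24.2 CPM in WT and at 12.7, 12.4, 13.1 and 6.75 CPM in miR-21-/- TAMs. The fall was 1.01 (SE 0.18, adjusted p = 0.00227), and the call was lost without WT replicate 1, 3 or 4 or without miR-21-/- replicate 2, with adjusted p-values up to 0.00892. Thbs2, which encodes an antiangiogenic thrombospondin, had separated groups, 4.98 to 9.64 CPM in WT and 1.22 to 4.80 CPM in miR-21-/- TAMs, and a fold change of -1.16 that did not pass the threshold (adjusted p = 0.00902). Fbln2 (-0.88, adjusted p = 0.0135) and Postn (-1.04, adjusted p = 0.0169), genes for fibulin and periostin, were scarce, with miR-21-/- means of 0.324 and 0.281 CPM. Tnc, encoding tenascin C, ranged from 3.02 to 16.2 CPM in WT and from 2.02 to 6.47 CPM in miR-21-/- TAMs, with an adjusted p of 0.205.

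The small leucine-rich proteoglycans, which bind fibrils, gave 0 calls of 2 tested genes with limma, and 1 was lower at an unadjusted p under 0.05. Dcn, encoding decorin, was at 4.18, 2.63, 4.70 and 12.6 CPM in WT and at 1.49, 5.40, 2.27 and 1.69 CPM in miR-21-/- TAMs (fold change -0.85, SE 0.40, adjusted p = 0.124). The value of miR-21-/- replicate 2 lay above 3 of the 4 WT values. Bgn, encoding biglycan, had a fold change of -1.24 (adjusted p = 0.0525), and its miR-21-/- replicate 2, at 3.24 CPM, lay above WT replicates 1 and 2. Lum, encoding lumican, was at 1.47, 0.381, 0.445 and 1.23 CPM in WT and at 0.224, 0.0899, 0.230 and 0.0992 CPM in miR-21-/- TAMs. These values did not overlap, but they came close to the level of 3 reads.

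Of the 3 tested genes that act on collagen after its synthesis 2 fell, with a median fold change of -1.02. Pcolce, which enhances the cleavage of procollagen, was at 13.5, 20.8, 19.9 and 22.4 CPM in WT and at 10.4, 6.81, 12.2 and 6.78 CPM in miR-21-/- TAMs, and it fell by 1.02 (SE 0.20, adjusted p = 0.00351). Loxl2, a lysyl oxidase that crosslinks collagen, was at 21.8, 22.2, 20.4 and 16.6 CPM in WT and at 11.1, 8.00, 12.4 and 4.48 CPM in miR-21-/- TAMs, and it fell by 1.16 (SE 0.24, adjusted p = 0.00475). Each of these calls was lost in 6 of the 8 fits that left out 1 sample: for Pcolce without any sample other than WT replicate 1 and miR-21-/- replicate 3 (adjusted p up to 0.0126), and for Loxl2 without any sample other than miR-21-/- replicates 3 and 4 (up to 0.0161). Serpinh1, the collagen chaperone HSP47, had the highest level of this role, at 19.6, 28.7, 23.9 and 30.1 CPM in WT and 17.4, 14.0, 15.8 and 9.49 CPM in miR-21-/- TAMs. The groups were separate, but its fold change of -0.82 (SE 0.18) had an adjusted p of 0.00621. Lox was at 1.20, 0.554, 1.19 and 2.03 CPM in WT and 0.0746, 1.14, 0.0768 and 0.0661 CPM in miR-21-/- TAMs, so that 3 of the miR-21-/- values were under the level of 3 reads and the other was as high as WT.

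Both PDGF receptor genes fell. Pdgfra, the receptor that marks fibroblasts, was at 10.5, 18.4, 12.8 and 21.1 CPM in WT and at 3.51, 3.60, 4.61 and 2.08 CPM in miR-21-/- TAMs, a fall of 1.89 (SE 0.23, adjusted p = 0.000282). Pdgfrb, the receptor of pericytes and of many fibroblasts, was at 4.25, 6.30, 3.76 and 5.42 CPM in WT and at 1.53, 1.80, 1.31 and 1.46 CPM in miR-21-/- TAMs, a fall of 1.22 (SE 0.14, adjusted p = 0.000242). The groups were separate for both genes, and both calls held with any sample left out. Of the 17 calls, 9 held in this way, namely Col5a1, Col4a1, Col15a1, Col18a1, Col6a1, Col6a2, Col6a3, Pdgfra and Pdgfrb.

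The members did not all vary together over the samples. In 13 of the 33 members, miR-21-/- replicate 2 was more than 1.5 times every other miR-21-/- sample, a limit chosen after the values were seen. These were Col1a1, Col1a2, Col3a1, Col5a1, Col5a2, Col6a2, Col12a1, Fbln2, Postn, Tnc, Bgn, Dcn and Lox. In 11 of these 13, WT replicate 2 was the lowest WT sample, whereas in the other 20 members it was the lowest in 2, Sparc and Lum. In 7 members, Col4a1, Col4a2, Col18a1, Col5a3, Col16a1, Loxl2 and Pdgfrb, WT replicate 2 was instead the highest WT sample. miR-21-/- replicate 4 was the lowest of its group in 20 of the 33 members. Leaving out replicate 2 of both genotypes, an alternative chosen after the data were seen, gave 13 members lower and 0 higher. Over all 13850 tested genes it gave 202 lower and 229 higher. Col1a2 (adjusted p = 0.000386), Bgn (0.00202), Col12a1 (0.00384) and Col5a2 (0.00438) then passed the threshold, and Col4a1, Col4a2, Col6a3, Col14a1, Col16a1, Sparc, Loxl2 and Pcolce did not, with adjusted p-values of 0.00657 for Col4a1 to 0.0406 for Loxl2.

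**Figure D3:**
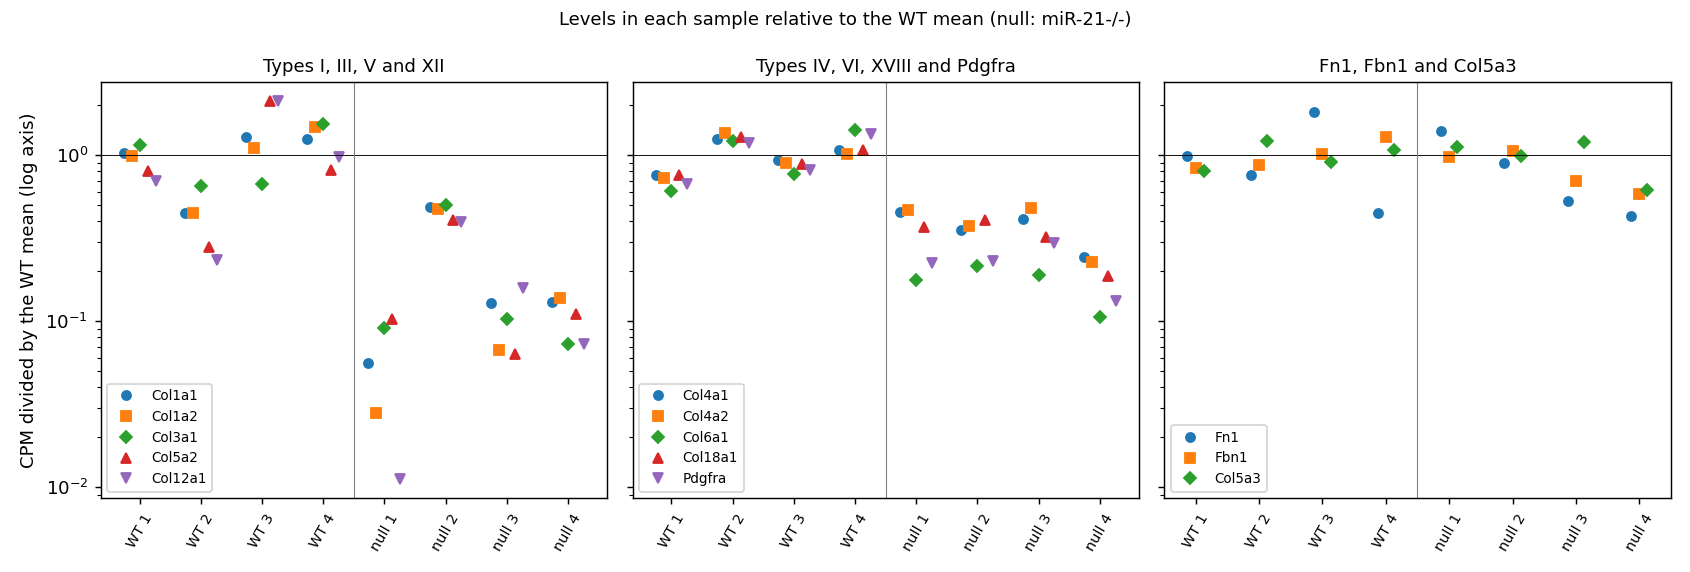
CPM of each gene in each sample divided by its WT mean, on a log axis, with the genotypes separated by a vertical line and null standing for miR-21-/-; the genes in each panel were chosen after their values were seen. In the left panel replicate 2 is low in WT and high in miR-21-/- TAMs, in the middle panel the genotypes are apart in every sample, and in the right panel they are mixed.

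Levels between genes were compared per kb of annotated exon. In WT TAMs Fn1 led, at 11.3 ± 6.61 CPM per kb, followed by Serpinh1 at 10.5 ± 1.96 (SD, n = 4), and this pair did not differ beyond its spread. Col6a1 at 6.24, Sparc at 6.11, Col4a1 at 5.87, Pcolce at 5.01 and Col18a1 at 4.70 CPM per kb came next, with SDs of 0.759 to 2.35 that overlapped between neighbours. Col4a2 at 3.95, Loxl2 at 3.75, Col3a1 at 3.71 and Col1a1 at 3.47 CPM per kb followed. In miR-21-/- TAMs Fn1 was at 9.12 and Serpinh1 at 5.80 CPM per kb, while Col6a1 was at 1.07, Col3a1 at 0.713 and Col1a1 at 0.691 CPM per kb. The order depends on the length used. Per kb of the longest transcript, Fn1 was at 15.8, Serpinh1 at 11.3, Sparc at 10.1, Pcolce at 7.44, Col6a1 at 6.66, Col4a1 at 6.63 and Col3a1 at 6.55 CPM in WT TAMs.

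The contrast between fibronectin and the fibroblast collagens was followed in each sample. The 10 fibroblast collagens Col1a1, Col1a2, Col3a1, Col5a1, Col5a2, Col6a1, Col6a2, Col6a3, Col12a1 and Col14a1 summed to 143, 116, 170 and 209 CPM in WT and to 21.1, 63.1, 27.0 and 17.8 CPM in miR-21-/- TAMs. The means were 159 ± 39.6 and 32.3 ± 20.9 CPM (SD, n = 4), a ratio of 4.94, and the groups did not overlap. This list was set with earlier results known and leaves out the fibrillar chain Col5a3, with which the ratio was 3.95, a sum added after the data were seen. Of these 10 genes 7 fell, Col1a2, Col5a2 and Col12a1 being the exceptions. Divided by Fn1, the sum was 1.10, 1.17, 0.712 and 3.56 in WT and 0.116, 0.537, 0.387 and 0.316 in miR-21-/- TAMs. Fn1 made up 26.3%, 19.1%, 35.8% and 9.96% of the summed CPM of the members in WT and 53.9%, 37.9%, 29.9% and 38.0% in miR-21-/- TAMs. These sums were described and not tested.

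In a bulk sample, fewer cells of a type and less RNA per cell cannot be told apart. Markers of other cell types were therefore summed in the same samples. The sort required CD45, which fibroblasts, pericytes, endothelium and epithelium lack, and F4/80 and MHC II, of which neutrophils carry little. Their counts at an unadjusted p under 0.05 are to be read against the 34.1% of all tested genes that were lower at that limit and the 12.3% that were higher. The 14 fibroblast markers that are not members summed to 43.2, 60.2, 46.8 and 52.8 CPM in WT and to 28.1, 27.9, 27.1 and 18.1 CPM in miR-21-/- TAMs, with separate groups. Of these markers 7 could be tested, 6 were lower at an unadjusted p under 0.05 and 2, Serpinf1 and Fap, fell, with Serpinf1 at -1.25 (adjusted p = 0.000668) and Fap at -0.83 (adjusted p = 0.00356), the latter not past the threshold after rescaling. The other 7 (Mfap5, Mfap4, Tcf21, Clec3b, Fbln1, Ccl11 and Cxcl12) were below 1 CPM in all samples. No marker of these lists was at 0 in all samples.

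The 11 pericyte and smooth muscle markers summed to between 10.1 and 16.5 CPM in WT and between 8.68 and 11.1 CPM in miR-21-/- TAMs, with 0 of 3 tested genes called and 1, Mcam, lower at an unadjusted p under 0.05 (fold change -0.71). Acta2 (fold change -0.07) carried most of this sum. Without it, a choice made after the data were seen, the groups were separate, at 3.99 to 6.24 CPM in WT and 2.55 to 3.22 CPM in miR-21-/- TAMs. Tagln, the other tested marker, was above 0 (fold change 0.25). The 14 endothelial markers summed to between 157 and 309 CPM in WT and between 207 and 295 CPM in miR-21-/- TAMs, and without Pecam1, which myeloid cells also express, to between 24.7 and 26.9 and between 20.01 and 28.1 CPM. Of 5 tested, 0 were called by limma and 0 had an unadjusted p under 0.05. The 8 epithelial markers were separated between the groups, at 19.9 to 26.4 CPM in WT and 13.7 to 18.4 CPM in miR-21-/- TAMs, with 0 of 4 tested genes called and 2 lower at an unadjusted p under 0.05. Neutrophil markers summed to between 397 and 746 CPM in WT and between 303 and 439 CPM in miR-21-/- TAMs, with 0 of 3 tested genes called by limma and 2, S100a8 and S100a9, lower at an unadjusted p under 0.05. T and NK cell markers summed to between 11.3 and 13.7 CPM in WT and between 8.76 and 36.6 CPM in miR-21-/- TAMs, with 0 of 6 tested genes called by limma and 2 higher at an unadjusted p under 0.05. Dendritic cell markers summed to between 9.26 and 15.1 CPM in WT and between 14.0 and 38.2 CPM in miR-21-/- TAMs, with 0 of 5 tested genes called by limma and 2 lower and 1 higher at an unadjusted p under 0.05. The part of these cell types in the results was not tested.

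**Figure D4:**
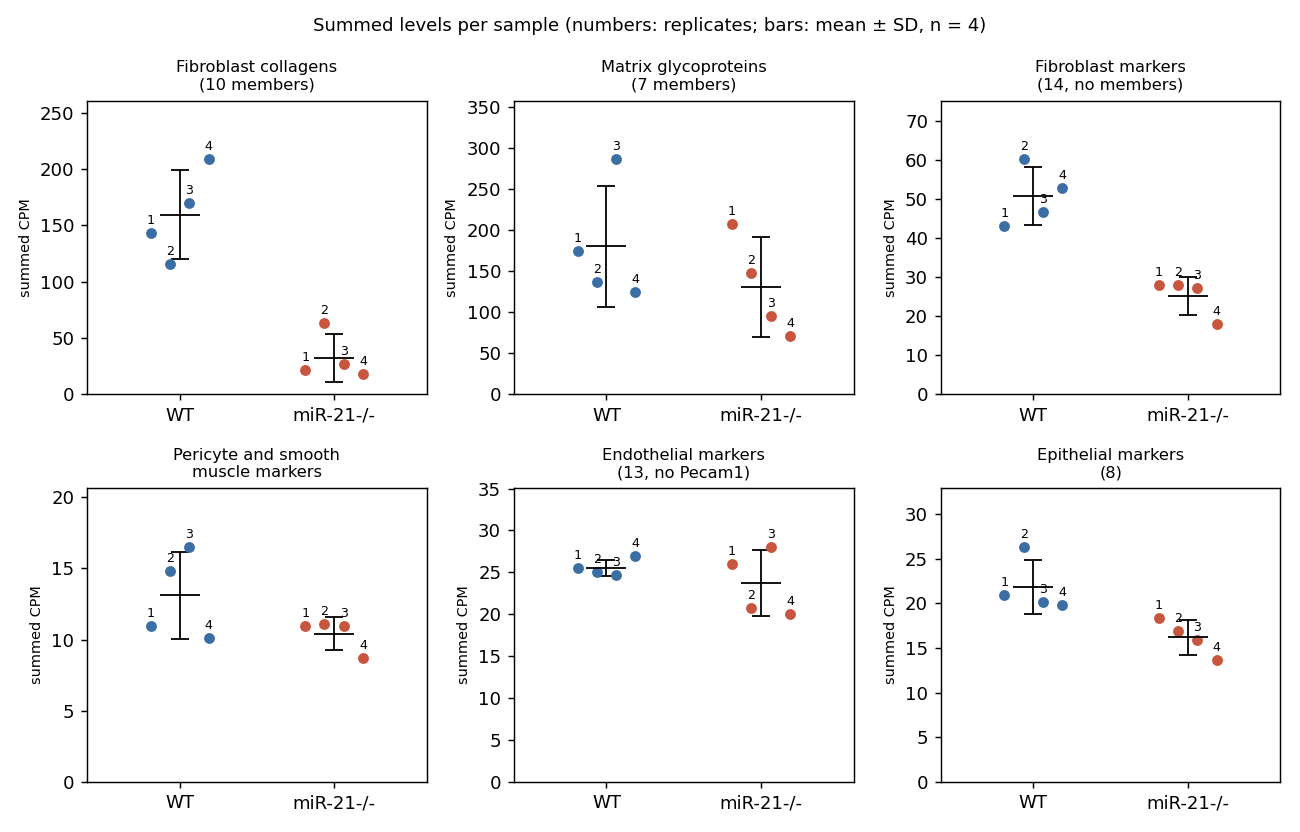
Summed CPM per sample of the fibroblast collagens, the matrix glycoproteins and 4 lists of cell type markers; numbers are replicates, and bars are the mean ± SD (n = 4). The fibroblast collagens and the fibroblast and epithelial markers are separated by genotype, while the glycoproteins, which include Fn1, the pericyte markers, whose sum is mostly Acta2, and the endothelial markers overlap.

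Other genes of the same pathways were counted from lists. Calls lost when samples were rescaled by the median of ratios are marked as lost after rescaling. The shares of all tested genes that fell and rose were 4.23% and 2.89%. Of 16 tested collagen biosynthesis enzymes 3 fell (18.8%) and 0 rose, with a median fold change of -0.16. Bmp1, the procollagen C-proteinase whose activity Pcolce enhances, fell by 1.27 (adjusted p = 0.000531), and P3h3, a prolyl 3-hydroxylase, fell by 1.11 (adjusted p = 0.00123). Colgalt1, a collagen galactosyltransferase, fell by 0.69 (adjusted p = 0.00409) (lost after rescaling). Of 9 tested laminins and other basement membrane genes 3 fell (33.3%) and 0 rose, with a median of -0.76. Nid2, encoding a nidogen, fell by 1.73 (adjusted p = 0.00126), Hspg2, encoding perlecan, by 1.14 (adjusted p = 0.00342, lost after rescaling) and Lamb2 by 0.86 (adjusted p = 0.000905). Of 27 other collagens 3 could be tested, Col11a2, Col20a1 and Col7a1, with 0 called by limma and 0 at an unadjusted p under 0.05.

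Of 16 tested collagen receptors, uptake and breakdown genes, 1 fell (6.25%) and 2 rose (12.5%), with a median of -0.01. After either rescaling or quantile normalization 0 fell and 2 rose. Itga1, the alpha chain of a collagen-binding integrin, was at 16.3, 9.57, 11.3 and 11.1 CPM in WT and at 70.6, 59.8, 47.6 and 42.1 CPM in miR-21-/- TAMs, a rise of 2.10 (SE 0.18, adjusted p = 3.98e-05). Mmp13, a collagenase, rose by 1.20 (adjusted p = 0.000279), and the neutrophil collagenase Mmp8 fell by 0.81 (adjusted p = 0.00379, lost after rescaling), beside neutrophil marker sums that overlapped and had a mean of 570 CPM in WT against 376 CPM in miR-21-/- samples. S100a8 (-0.52, adjusted p = 0.0488) and S100a9 (-0.62, adjusted p = 0.0292) were below 0 as well and did not pass the threshold. Ly6g, the other tested neutrophil marker, went the other way (0.31, adjusted p = 0.270 with limma). The part of neutrophils in the Mmp8 value was not tested. Of 8 matrix genes that macrophages express, Fn1 included, 4 rose and 0 fell, with a median of 0.63. At an unadjusted p under 0.05, 5 were higher and 1, F13a1, was lower (fold change -0.63). The shares of all tested genes at that limit were 12.3% higher and 34.1% lower. Tgm2, encoding a transglutaminase, rose by 1.14 (adjusted p = 1.73e-05), Thbs1, encoding a thrombospondin, by 1.12 (adjusted p = 0.00328), Ecm1 by 0.92 (adjusted p = 0.000638) and Tgfbi by 0.73 (adjusted p = 0.000670). After quantile normalization Tgm2 and Ecm1 remained past the threshold and Thbs1 and Tgfbi did not.

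**Figure D5:**
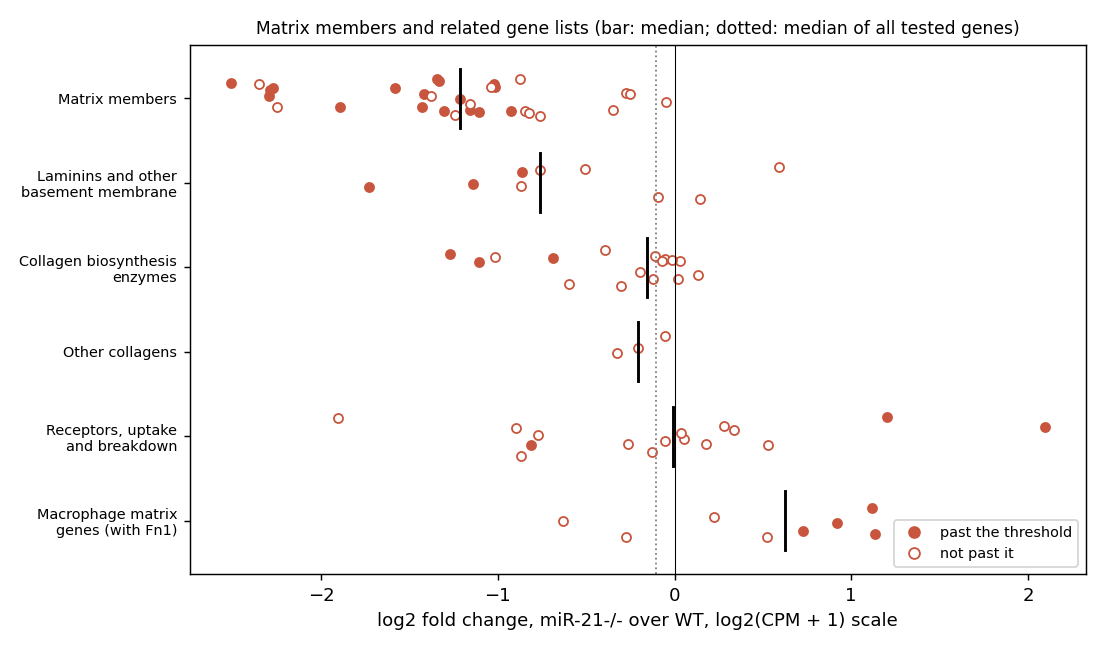
Log2 fold change, miR-21-/- over WT, of the tested members and of 5 related lists on the log2(CPM + 1) scale, with 1 point per gene, filled where it passed the threshold. Black bars are medians and the dotted line is the median of all tested genes, -0.10. The members lie lowest, with a median of -1.22, and the macrophage matrix genes highest, with a median of 0.63.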

How the data were processed

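Per the labels, TAM RNA was extracted with a Qiagen micro kit, mRNA libraries were made with a Kapa kit, and the processing notes name STAR, Partek 7.0 and mm10. The authors deposited CPM values for 53247 genes in 8 samples, raised by 0.0001, which was subtracted here. The counting rule and strand are not given in the sources used here. Depth was read from the steps of low values (20.2 to 33.4 in units of 1e+06 reads). Of values up to 20 reads, 73.7% to 74.6% were whole within 0.02, so reads were not recovered and no count test was run. Precision is limited by 4 samples per genotype and, for scarce genes, by reads; floors cover counting error only.

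Genes whose mean reached 1 per 1e+06 of the column total (13850) were tested on log2(CPM + 1) using limma 3.58.1 under R 4.3.3, with lmFit and trended eBayes, two-sided, with Benjamini-Hochberg adjustment over all tested genes and the limits the study states. The fit was tested on simulated data. Exon lengths and 3′ UTRs came from GENCODE vM21 (GRCm38), where 32 of 33 members had the same start, and promoters and miR-21a-5p from RefSeq (GRCm38.p6). The members and lists were chosen with earlier results of these data known. Members past the threshold, the highest of each role and Fn1, Col1a1, Col3a1, Col4a1, Pdgfra and Pdgfrb have full values by rule, others by range or as noted; of the other lists, at most 2 genes with the largest and 2 with the smallest change past the threshold were named. Alternatives were other pseudocounts, filters, scalings, thresholds and variance settings, a block, and leaving out samples. Figures were drawn with matplotlib 3.10.9.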

Additional observations from a re-analysis of the deposited data

Results flagged for a closer look

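Among 72 groups of 4 values, 4 held a sample far from the others, where about 1 in 20 is flagged by chance. The gap to the nearest sample, divided by the range of the group, was 0.84 for Col3a1 and 0.986 for Lox, with miR-21-/- replicate 2 above the others. It was 0.905 for Col6a3 and 0.913 for Sparc, with miR-21-/- replicate 4 below the others. Without miR-21-/- replicate 2 the fold change of Col3a1 was -3.06, and without miR-21-/- replicate 4 it was -1.10 for Col6a3 and -0.81 for Sparc. Ctsk, encoding the collagen-degrading cathepsin K and chosen after its values were seen, was also lowest in WT and highest in miR-21-/- TAMs in replicate 2, at 60.8, 10.4, 42.2 and 14.1 CPM in WT and 4.25, 15.3, 4.68 and 3.84 CPM in miR-21-/- TAMs (fold change -1.90, adjusted p = 0.0234 with limma).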

How the results depend on the processing

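Over the alternatives run, 29 of the 31 tested members kept a fold change below 0. Col5a3 (-0.15 to 0.14 with 1 sample left out) turned to 0.056 after rescaling by the median of ratios, 0.097 after quantile normalization, 0.047 without WT replicate 2, 0.14 without miR-21-/- replicate 4 and 0.031 without replicate 2 of both genotypes, and Fn1 (-0.60 to 0.073) to 0.073 without WT replicate 3. Of the 17 calls, Col6a1, Col6a2 and Pdgfra were past the threshold in every setting. The count of members past the threshold was 6 with no filter on low values, where 30634 genes were tested, 10 to 14 when 1 sample was left out (10 without WT replicate 3), 14 with a pseudocount of 10 and 24 with an adjusted p limit of 0.05. Over all genes the count of 986 became 452 with a pseudocount of 10, 515 with no filter, 1982 with no fold change limit, 431 without replicate 2 of both genotypes and 685 to 1001 when 1 sample was left out. Of the calls over all genes 40.6% were higher, 59.8% after rescaling and 59.3% after quantile normalization; the cause was not tested. The mean log2 level of the members differed by -1.25, by -1.69 with a pseudocount of 0.1 and by -0.56 with one of 10. The group means of the log2 of the summed fibroblast collagens differed by -2.46 (-2.85 to -2.24 with 1 sample left out), which is not the ratio of mean CPM given above. The median WT level was 1.30 CPM per kb of exon and 1.69 per kb of the longest transcript. With the replicate number as a block, 12 members and 922 genes passed, and Col1a1, Col3a1, Col14a1, Col16a1 and Pcolce did not. Deviations from the group means over the tested genes had correlations of 0.083, -0.11, -0.14 and 0.22 between same-numbered samples. Over all pairings of a WT with a miR-21-/- sample the range was -0.20 to 0.22. These values cannot show whether the numbers pair the samples. The count tests planned for recovered reads were not run. At these depths, differences in Col14a1, Lum, Lox and Postn rest on few reads.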
